A study of Caenorhabditis elegans with 2 samples.

Results

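The 10 genes described here encode subunits of the SWI/SNF chromatin remodelling complex of Caenorhabditis elegans. The data are the chromatin regions listed for the MADF-domain protein MADF-10 at those genes. The genes were taken by name from the WBcel235 annotation (let-526, swsn-1, swsn-2.2, swsn-3, swsn-4, swsn-6, swsn-7, swsn-9, pbrm-1 and snfc-5), and all 10 names were found among 19985 protein-coding genes. Every region whose summit lay inside such a gene or within 1000 bp upstream of it was collected, which gave 50 of the 30000 regions of the authors' pooled list. The same windows held 8 of the 1869 regions of their reproducible list, 37 of 25924 in replicate 1 and 45 of 30000 in replicate 2. The genes were chosen by the signal and rank of MADF-10 regions at some of them, as well as by their shared complex, so signal values, ranks and counts are given as a description, with no test.

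MADF-10 was mapped by chromatin immunoprecipitation and sequencing (ChIP-seq) with an antibody against GFP. The 2 biological replicates were whole hermaphrodites of strain OP508, which carries the unc-119(tm4063) mutation and the transgene wgIs508, a stably expressed MADF-10 with a GFP-FLAG tag at its C terminus. They were young adults, collected 68 h after synchronisation as starved L1 larvae, and their chromatin was sheared by sonication. There was 1 group and no comparison between conditions. Both replicates carried the mutation and the transgene, whose promoter and copy number the labels do not give. The labels name a possible control experiment, whose data were not analysed here. Whole worms mix tissues, so a region bound weakly in many cells and one bound strongly in few cannot be told apart.

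SWI/SNF complexes use ATP to slide or evict nucleosomes, which opens or closes promoters and enhancers. Worms, like flies and mammals, build them in the forms BAF and PBAF. Both forms share a core made of the ATPase SWSN-4, the scaffold protein SWSN-1 and SNFC-5, together with accessory subunits. LET-526, an ARID-domain protein, marks BAF, whereas PBRM-1 (polybromo), SWSN-7 (an ARID protein) and SWSN-9 (a bromodomain protein) mark PBAF. In worms the complex is known for its part in asymmetric cell division, in gonad development and in the exit of cells from division.

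The lists are called here by their origin. The pooled list was made from both replicates together, and the reproducible list is the part of it that passed the authors' irreproducible discovery rate (IDR) threshold. The pooled and replicate lists were made as input to that step and hold background beside peaks, by their names, so a weak region in them is a listed region and need not be a binding site. Each region carries the authors' signal value, whose unit is not stated. Since the medians differed between lists (23.3 pooled, 10.8 in replicate 1, 17.9 in replicate 2), signal was compared between replicates only after division by the median of the list. The labels and readme files give no read number for either library. A reproducible region had a pooled signal of at least 92.3, and ranks run from 1 for the strongest region. The 1869 reproducible regions were the 1869 strongest of the pooled list. A place in the reproducible list therefore follows pooled signal, and need not mean close agreement of the replicates at that site.

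Reproducible MADF-10 regions lay at 4 of the 10 SWI/SNF genes. These were let-526 with 5 regions, and swsn-7, pbrm-1 and swsn-3 with 1 each. Among all protein-coding genes, 1584 (7.93%) held a reproducible summit in the same kind of window, and 6 (0.0300%) held 5 or more. The 10 genes were chosen with these lists in view, so nothing is read from the difference. By subunit class, the 4 were the BAF subunit let-526, PBAF subunits swsn-7 and pbrm-1, and the shared accessory subunit swsn-3. No core gene had a reproducible region. The 1869 strongest regions of replicate 2 alone gave the same 4 genes and 8 regions. Those of replicate 1 alone gave 3 genes and 5 regions, without swsn-3 and without the 2 weakest regions of let-526 that the reproducible list holds.

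The sequence is shown at the strongest upstream summit of each gene on a chromosome other than I that had one above the pooled median, because these are the sites at which the strongest and the weaker promoter regions of the family can be set beside each other. Each stretch is the ce11 reference from RefSeq, 60 bp to either side of the pooled summit (base 61), read on the strand of the gene, and capitals mark matches on either strand to 6 short motifs. These were GAGAGA (a GA repeat), TTTCAG (letters like the worm splice acceptor), TATAAA (the TATA box), GCGCG (a CpG run), CACGTG (the core of an E-box) and TTTTTT (a T run). The stretch at swsn-7 is chrII:8028395-8028515 (minus strand), that at swsn-3 chrIII:2768759-2768879 (minus strand), that at swsn-1 chrV:20249842-20249962 (minus strand) that at swsn-6 chrIV:5394850-5394970 (plus strand) and that at swsn-4 chrIV:11125310-11125430 (plus strand).
swsn-7: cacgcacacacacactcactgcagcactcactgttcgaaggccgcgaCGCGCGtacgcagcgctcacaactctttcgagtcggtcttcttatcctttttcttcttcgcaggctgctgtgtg
swsn-3: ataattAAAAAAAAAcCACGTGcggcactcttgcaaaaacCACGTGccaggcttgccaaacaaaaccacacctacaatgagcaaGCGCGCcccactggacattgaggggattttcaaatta
swsn-1: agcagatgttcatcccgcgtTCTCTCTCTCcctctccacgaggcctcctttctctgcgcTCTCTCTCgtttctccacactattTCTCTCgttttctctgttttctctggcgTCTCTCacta
swsn-6: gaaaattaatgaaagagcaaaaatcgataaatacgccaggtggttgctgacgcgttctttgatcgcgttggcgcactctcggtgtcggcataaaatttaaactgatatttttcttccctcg
swsn-4: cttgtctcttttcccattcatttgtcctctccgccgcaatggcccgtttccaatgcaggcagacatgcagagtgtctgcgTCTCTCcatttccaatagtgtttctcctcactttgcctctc
The swsn-7 stretch holds a run of GCGCG letters. That of swsn-3 holds a T run, a pair of CACGTG matches and a GCGCG run, and that of swsn-1 holds several CT-rich runs that match GAGAGA on the other strand. The swsn-4 stretch has a match to GAGAGA, and the swsn-6 stretch has no match.

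The gene let-526 (WBGene00002717, chromosome I from 5300852 to 5317392, minus strand) encodes the large ARID-domain subunit that defines the BAF form. Its strongest region lay from 5312751 to 5313468 with the summit at 5313059, inside intron 4, which is 2689 bp long. The pooled signal was 751.6 at rank 43. The signal was 239.8 in replicate 1 (rank 50) and 520 in replicate 2 (rank 43). That was 22.1 and 29.1 times the medians of those lists, a mean log2 ratio of 4.67 ± 0.28 (SD, n = 2). Both replicates thus placed this intron site among their 50 strongest regions. A second summit lay in the same stretch 199 bp closer to the gene start, with a pooled signal of 265 at rank 221. There the signal was 49.3 in replicate 1 (rank 815) and 181 in replicate 2 (rank 219).

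The other reproducible regions of let-526 also lay in its 5' introns. In intron 1, which is 3415 bp long, a region from 5316171 to 5316697 had its summit 911 bp downstream of the outermost annotated start and a pooled signal of 251 at rank 252. Another region of that intron, from 5314619 to 5315038, had its summit 2563 bp downstream and a signal of 129 at rank 1059. A region of intron 4, from 5311713 to 5312132, had its summit 5469 bp downstream and a signal of 156 at rank 722. All 5 summits fell within 4558 bp, in the part of the gene up to 33.1% of its length from the start. The remaining 15 pooled regions of let-526 had signals between 12.7 and 55.4, and the upstream 1000 bp held 1 of them, with a signal of 17.3 at rank 21957.

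Annotated transcripts of let-526 start at 4 positions, the outermost one and 3 positions 3462 to 3470 bp downstream of it. Relative to the nearest of these internal starts, the strongest summit lay 863 bp downstream, the summit beside it 664 bp downstream and the weakest reproducible summit 899 bp upstream. The last of these was therefore the only reproducible summit of the gene inside a promoter window (the 1000 bp before and the 200 bp after any annotated start). It lay 496 bp downstream of the start of the small coding gene F48C1.3, outside that gene, which is nested in intron 1 on the other strand. The summit 911 bp downstream of the outermost start lay within F48C1.15, annotated as an antisense RNA, and the summit at 5469 bp lay within F48C1.12, annotated as a non-coding RNA on the same strand as let-526.

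The replicates differed more at the weaker let-526 sites than at the strongest one. At the intron 4 summit of rank 722 the signal was 2.89 times the list median in replicate 1 and 7.15 times in replicate 2, with ranks 1977 and 483. At the intron 1 summit of rank 1059 the ratios were 2.70 in replicate 1 and 6.20 in replicate 2, with ranks 2200 and 678. At the intron 1 summit of rank 252 they were 6.94 in replicate 1 and 10.3 in replicate 2. Replicate 2 was thus the higher at every reproducible summit of the gene, and the SD of the log2 ratio ran from 0.28 to 0.92 (n = 2).

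**Figure D1:**
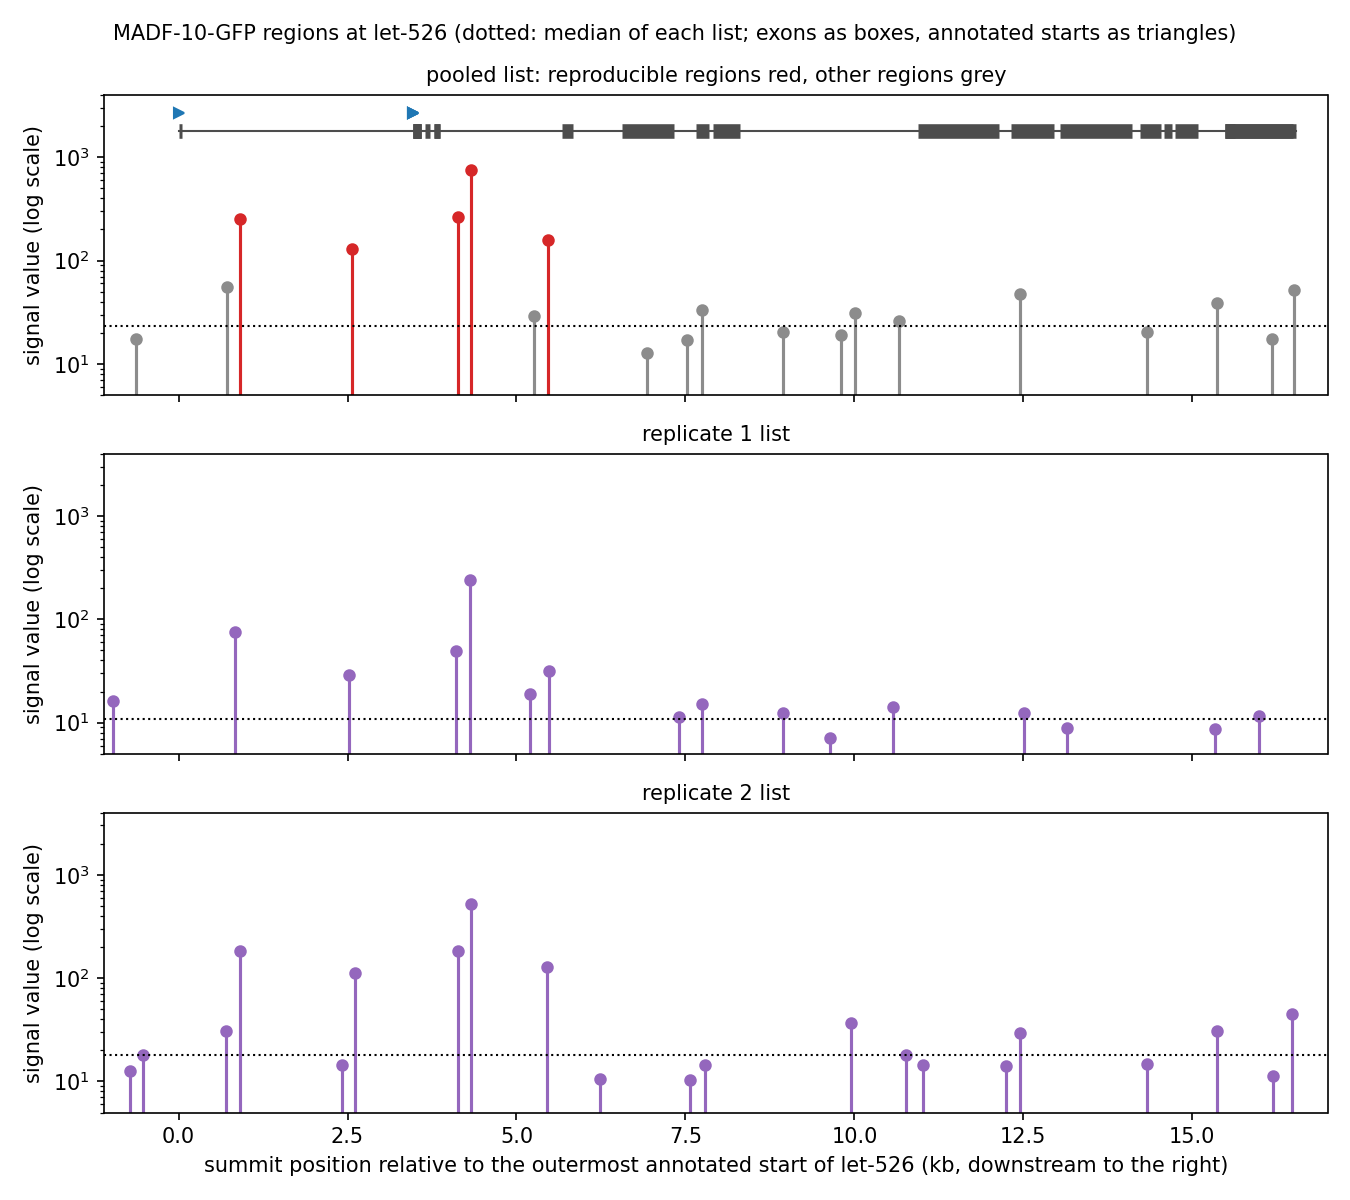
Signal value (log axis) of each region at let-526 against the distance of its summit from the outermost annotated start, in the pooled list and in each replicate. The 5 reproducible regions, in red, sit between 911 and 5469 bp downstream, and the other regions of the pooled list reach 55.4.

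The PBAF genes had a single strong region each at swsn-7 and pbrm-1. The gene swsn-7 (WBGene00007433, chromosome II from 8022632 to 8027763, minus strand) encodes the ARID subunit of PBAF. Its region lay from 8028267 to 8028599, with the summit at 8028455, 692 bp upstream of the only annotated start. The pooled signal was 282 at rank 191. It was 78.9 in replicate 1 (rank 284) and 204 in replicate 2 (rank 174), which is 7.29 and 11.4 times the list medians, a mean log2 ratio of 3.19 ± 0.46 (SD, n = 2). Among the 10 genes this was the strongest region upstream of a gene. Its summit also lay in the exon of the non-coding RNA gene C08B11.11, on the opposite strand, and swsn-7 had the nearest coding start.

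A weaker region lay beside the swsn-7 summit, 897 bp upstream of the start, with a signal of 56.2 at rank 3910. The 4 regions inside swsn-7 had signals from 16.0 to 32.2. With an upstream distance of 500 bp in place of 1000 bp, swsn-7 had no reproducible region.

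In pbrm-1 (WBGene00007042, chromosome I from 7495436 to 7503582, plus strand), which encodes the polybromo subunit with its many bromodomains, the strong region lay inside the gene. It ran from 7500345 to 7500623, with the summit at 7500523 in intron 9, 5087 bp downstream of the outermost start and 794 bp upstream of an internal start. The pooled signal was 218 at rank 340. Replicate 1 gave 69.4 (rank 398) and replicate 2 gave 153 (rank 334), a mean log2 ratio to the list median of 2.89 ± 0.29 (SD, n = 2). Intron 9 is 1260 bp long and held a second pooled region, with its summit 5296 bp downstream and a signal of 75.9 at rank 2530. Upstream of pbrm-1 the pooled regions had signals of 56.3 and 19.7, and both summits lay in T28F4.4, a gene on the opposite strand.

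The third PBAF gene, swsn-9 (WBGene00007256, chromosome I from 7224656 to 7227765, plus strand), encodes the bromodomain subunit and had no region above the pooled median. Its 3 pooled regions had signals of 17.7, 15.6 and 19.4. The summit nearest to a start lay 13 bp downstream of the outermost one, at 13.7 in replicate 1 (rank 8541). Replicate 2 had no summit within 100 bp of it, and its only region at swsn-9 lay near the 3' end. The PBAF genes therefore differed among themselves, with best pooled ranks of 191, 340 and 19127.

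**Figure D2:**
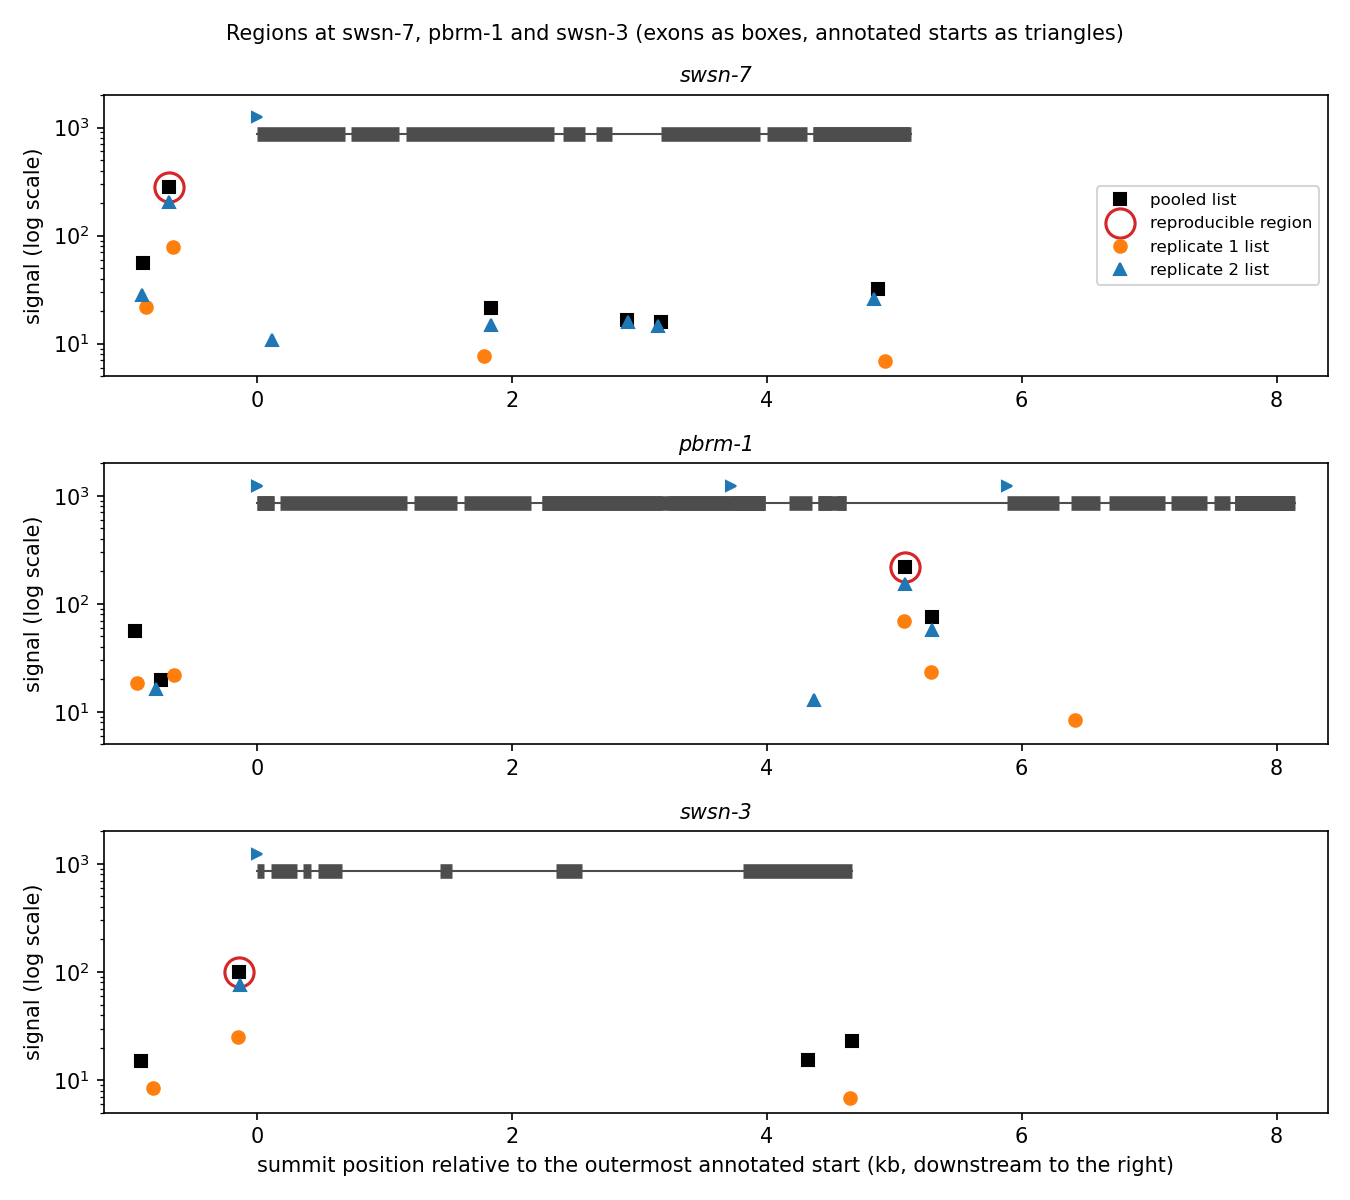
Signal value (log axis) of regions at swsn-7, pbrm-1 and swsn-3 against summit distance from the outermost annotated start, by list. The reproducible region (red circle) lies upstream of swsn-7 and swsn-3 and in intron 9 of pbrm-1, with signals of 282, 100.4 and 218.

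The accessory subunit genes swsn-3, swsn-6 and swsn-2.2 had promoter regions of lower signal. The gene swsn-3 (WBGene00022182, chromosome III from 2764010 to 2768679, minus strand) encodes the HMG-box subunit. Its region from 2768609 to 2769028 had the summit 140 bp upstream of the only annotated start and a pooled signal of 100.4 at rank 1639, close to the lower end of the reproducible list. Replicate 1 gave 25.2 (rank 2887) and replicate 2 gave 75.7 (rank 1448), a mean log2 ratio to the list median of 1.65 ± 0.61 (SD, n = 2). The position is also inside an intron of cox-6B, a respiratory chain gene annotated from 2699663 to 2786859 on the other strand, whose start lies 69156 bp away.

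The gene swsn-6 (WBGene00022774, chromosome IV from 5395033 to 5396969, plus strand) encodes the actin-related subunit. Its strongest pooled region, with a signal of 54.2 at rank 4121, had the summit 123 bp upstream of swsn-6 and 106 bp upstream of perm-3, a gene on the opposite strand. The signal was 21.4 in replicate 1 (rank 3821) and 33.6 in replicate 2 (rank 5368), a mean log2 ratio of 0.95 ± 0.05 (SD, n = 2). The ratios to the list median were 1.98 in replicate 1 and 1.88 in replicate 2, so the replicates differed little here. With its pooled signal below 92.3, the region was not in the reproducible list.

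For swsn-2.2 (WBGene00015971, chromosome I from 4210979 to 4212667, plus strand), which encodes a SMARCD-type subunit, the pooled signals were 31.4 and 24.3. The stronger summit lay 36 bp downstream of the start, and both lay in the upstream window of hop-1, a presenilin gene. Replicate 1 had no region at this gene, and replicate 2 had 1, with a signal of 27.4 at rank 7462.

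The core genes had no reproducible region. At swsn-1 (WBGene00004203, chromosome V from 20239182 to 20249488, minus strand), which encodes the SANT-domain scaffold protein, a region from 20249692 to 20250111 had its summit 414 bp upstream of the outermost start. The pooled signal was 63.4 at rank 3286. It was 19.6 in replicate 1 (rank 4458) and 38.5 in replicate 2 (rank 4312), a mean log2 ratio of 0.98 ± 0.18 (SD, n = 2). This was the strongest region of a core gene, and its sequence is the CT-rich stretch shown above.

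At swsn-4 (WBGene00004204, chromosome IV from 11126024 to 11131162, plus strand), the gene of the ATPase, the highest pooled signal was 37.4 at rank 7219, at a summit in the 3' UTR 184 bp upstream of the next gene, ard-1. There the signal was 10.9 in replicate 1 (rank 12884) and 27.3 in replicate 2 (rank 7529), while the highest region of replicate 1 (16.2, rank 6253) lay upstream of swsn-4. The 2 upstream regions had signals of 26.9 and 27.8, and their summits, 294 and 508 bp upstream of spo-11, were nearer to that gene than to swsn-4. The gene of the core subunit snfc-5 (WBGene00011111, chromosome III from 4404786 to 4406285, plus strand) had no region in any of the ce11 lists. The nearest pooled summit lay 2040 bp downstream of it, with a signal of 40.4. The core genes thus ran from a best pooled rank of 3286 at swsn-1 through 7219 at swsn-4 to none listed at snfc-5.

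**Figure D3:**
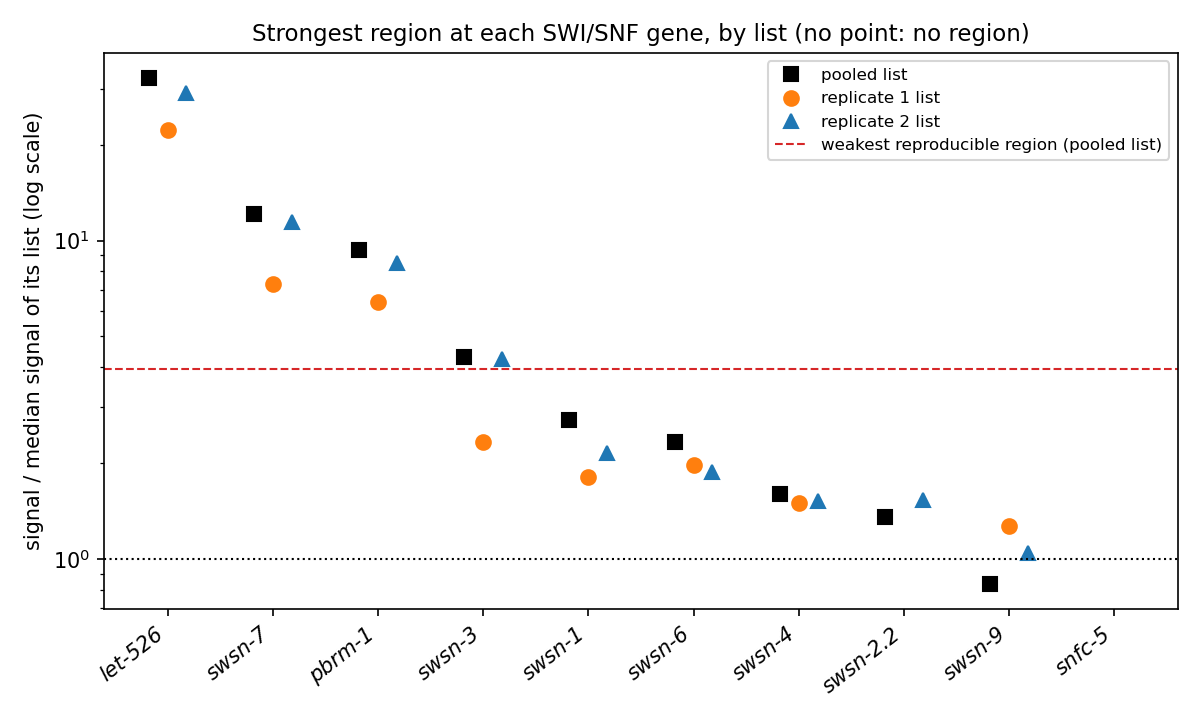
Strongest region at each gene in the pooled list and in each replicate, as signal divided by the median signal of the list (log axis). In the pooled list the ratio is 32.3 at let-526 and 0.835 at swsn-9, snfc-5 has no point, and the dashed line is the weakest reproducible region.

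The order of the strongest pooled regions was let-526, swsn-7, pbrm-1, swsn-3, swsn-1, swsn-6, swsn-4, swsn-2.2 and swsn-9. In replicate 2 the order was the same for the first 6 genes. In replicate 1 swsn-6 (1.98 times the median) stood above swsn-1 (1.81 times). The neighbours swsn-7 and pbrm-1 had log2 ratios of 3.19 ± 0.46 and 2.89 ± 0.29 (SD, n = 2 each). They differed by less than the SD of swsn-7, but each SD also holds the difference between the replicates, which both genes share. Within each replicate swsn-7 was the higher. The ratios to the median were 7.29 against 6.41 in replicate 1 and 11.4 against 8.525 in replicate 2. A difference below the spread was also found for swsn-1 and swsn-6, at 0.98 ± 0.18 and 0.95 ± 0.05 (SD, n = 2 each). The gene let-526 stood above swsn-7 by more than either SD. Just above the limit of the reproducible list was the swsn-3 region (100.4), and just below it the second region of pbrm-1 (75.9) and the swsn-1 region (63.4). Just inside the distance of 1000 bp lay the pbrm-1 summit 955 bp upstream (56.3), and the swsn-6 summit 945 bp upstream (18.3). Just outside it lay a summit 193 bp further upstream at swsn-6 (53.3).

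By position, 4 of the 8 reproducible summits lay in a promoter window of their gene and 4 in introns outside such windows. The 4 intron summits were all in let-526. No gene of the 10 had reproducible summits only outside its promoter windows, against 1.55% of all protein-coding genes. Of the 4 in promoter windows, those of swsn-3 and swsn-7 lay upstream of the outermost start, and those of let-526 and pbrm-1 upstream of an internal start. Of all reproducible summits 54.3% lay in a promoter window of any coding gene, which is a wider count than windows of the own gene and was not compared. Among the 50 pooled regions 17 (34%) lay in promoter windows of their own gene. The 35.5% of all pooled regions that lay in promoter windows counts those of any coding gene, so the shares are unlike and were not compared. Those 17 had a median signal of 54.2, while 15 lay in other intron positions (29.0) and 18 in other exon positions (22.1). None of those 18 was reproducible, and their highest signal was 51.5. Some of the 18 lay in the promoter window of a neighbouring gene. Among them were the highest one, in the 3' UTR of let-526 and 561 bp upstream of hpo-32, and the swsn-4 summit 184 bp upstream of ard-1. Without let-526 only 3 pooled regions lay in introns outside promoter windows, with signals from 15.1 to 16.6. The promoter windows of 9 of the 10 genes held a pooled summit, against 39.4% of all protein-coding genes. The promoter windows of 4 held a reproducible one, against 6.38%. That count of 4 genes depends on the definition. It was 1 (swsn-3) with a window from 500 bp upstream to 100 bp downstream and 2 (swsn-3 and swsn-7) with the outermost start only. It was also 2 (pbrm-1 and swsn-7) with the stronger 50% of the reproducible list or with the 1869 strongest regions of replicate 1 alone. A pooled summit in the gene or its upstream 1000 bp was found for 9 of the 10, against 49.6%. In replicate 1 a summit was found for 8 of the 10 (all genes 52.4%), and in a promoter window for 8 (38.2%). In replicate 2 the counts were 9 (51.8%) and 8 (40.0%). The choice of genes used these lists, so nothing is read from those shares. The 10 genes are longer than most, with a median length of 4901 bp against 2026 bp for all protein-coding genes, and they held 0.733 pooled summits per kb of window, against 0.332 over all protein-coding genes.

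**Figure D4:**
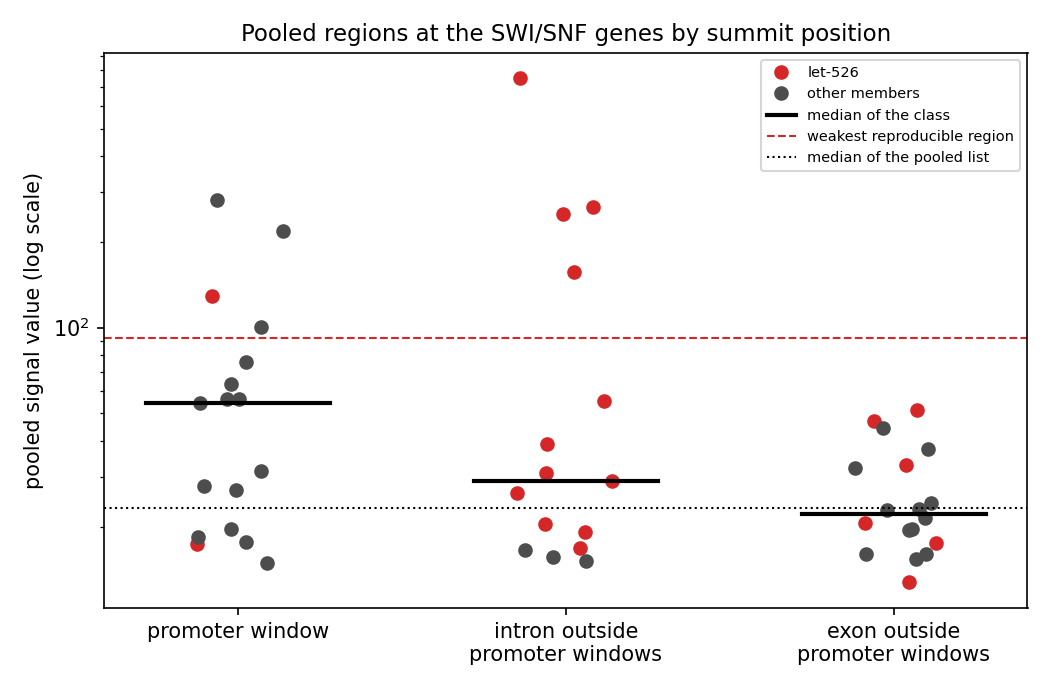
Pooled signal value (log axis) of the 50 regions at the SWI/SNF genes by position of the summit, with let-526 in red and the other genes in grey. Promoter windows are those of the gene itself. Medians are 54.2 in promoter windows, 29.0 in other introns and 22.1 in other exons, and every region above the dashed line outside a promoter window belongs to let-526.

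Features of the reference sequence, which played no part in choosing the genes, were read in windows of 100 bp to either side of the pooled summits. The 8 reproducible regions had a median GC content of 50.2%, from 37.3% at the weakest let-526 summit to 56.2% at swsn-7. The median was 44.8% over all 1869 reproducible regions and 35.8% over the 15000 weakest pooled regions. The other 42 regions at the 10 genes had a median of 40.3%. The windows of the strongest let-526 summit and of the summit beside it overlap by a few bases.

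Letters that match GAGAGA on either strand were found in 4 of the 8 windows, 3 in let-526 and 1 at swsn-7. They were in 37.9% of all reproducible regions and in 12.3% of the 15000 weakest pooled regions. The swsn-7 match lies outside the stretch printed above. The letters GCGCG were in 3 of the 8 windows (swsn-3, swsn-7 and pbrm-1), against 31.3% of all reproducible regions. The palindrome CACGTG was in the swsn-3 window only, against 8.51% of all reproducible regions. The letters TTTCAG were in 0 of the 8, against 15.8%, and so were those of the TATA box, against 13.2%. Runs of TTTTTT were in 2 of the 8, against 47.8%. A T run can share letters with TTTCAG or with the TATA box, and each motif was counted on its own. A match describes letters and not a binding site.

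A tRNA, snoRNA, snRNA or rRNA gene lay within 200 bp of 0 of the 50 pooled summits at the SWI/SNF genes, against 2.79% of all pooled summits. For the reproducible summits the values were 0 of 8, against 20.9% of all. Genes annotated as ncRNA, antisense RNA or lincRNA lay within 200 bp of 4 of the 8 reproducible summits, at F48C1.12 and F48C1.15 in let-526, C08B11.11 at swsn-7 and C26C6.12 in pbrm-1. The share was 23.4% over all reproducible summits. Of the 50 pooled summits 9 (18%) had such a gene at that distance, against 7.34% of all pooled summits.

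Other genes of SWI/SNF and of related remodellers were listed for comparison. Of 4 further SWI/SNF genes (ham-3, dpff-1, phf-10 and bcl-7), 0 had a reproducible region, against 7.93% of all protein-coding genes. All 4 had a pooled region, against 49.6% of all. With 4 genes nothing is read from either count. Of all 22 listed genes, which include these 4 and genes of the ISWI, CHD, NuRD and SWR1 groups, 7 had a reproducible region (31.8%), against 4 of the 10 genes above and 7.93% of all protein-coding genes. The strongest was at lin-53, a histone-binding protein of several complexes, with a signal of 335 at rank 137 and the summit 247 bp upstream, in a window shared with nra-2. Next came ruvb-1 (174), an AAA ATPase of several remodellers, mep-1 (169), a zinc finger partner of LET-418, and htz-1 (163), the H2A variant that SWR1 complexes deposit. The ruvb-1 summit was shared with tofu-1 and that of htz-1 with wapl-1. Those of nurf-1 (148), chd-7 (135) and lin-40 (101 and 95.1) were weaker. At nurf-1 the summit lay 9078 bp inside the gene and within a promoter window of an internal start, as at pbrm-1. None of these genes had more than 2 reproducible regions, against 5 in let-526, of which 2 are summits of the same stretch. The gene let-526 is 16541 bp long. Of the 322 coding genes of that length or longer, 24.5% held a reproducible summit.

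Between the replicates, the 8 reproducible summits of the SWI/SNF genes moved by a median of 24.5 bp in replicate 1 and 3 bp in replicate 2 from the pooled position. Over the 1795 reproducible regions with a summit within 100 bp in both replicates, the medians were 15 bp in replicate 1 and 3 bp in replicate 2. After division by the list median, replicate 2 exceeded replicate 1 at all 8 summits, by a median of 0.76 on the log2 scale and by 0.39 to 1.31. Over all such regions the median was 0.38, with 5% of the regions below -0.39 and 5% above 1.33. The 8 values were thus within the range of reproducible regions at large, on its upper side.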

How the data were processed

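ChIP-seq of MADF-10-GFP was analysed from the authors' region lists on build ce11, for 2 replicates of 1 group. The deposited readme files trace each replicate list to the alignments of that sample and a further file of unstated kind, and the pooled list to those of both samples, and name the reproducible list as IDR-thresholded. The signal value of each region is the authors' own (column 7 of the deposited lists). No source used here gives its scale, the aligner, the peak caller or the depth per sample. Signal was used to rank and describe regions within a list and, for replicates, after division by the list median.

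Genes, transcripts and features came from Ensembl release 115 (WBcel235, the assembly of ce11), and sequence from the RefSeq copy of that assembly, whose chromosomes hold all region coordinates. A region counted for a gene where its summit lay in the gene or within 1000 bp upstream. A replicate summit within 100 bp was paired with a pooled one. Positions count from 1. On ce10, only the number of reproducible regions was used.

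No test was run, since 1 group allows none and the genes and lists were chosen with earlier results of these data known. Named genes are the 10 members, coding genes sharing a reproducible summit, listed remodeller genes with a reproducible region and non-coding genes within 200 bp. Neighbours of weaker regions and F48C1.3 were named after their values were seen. Assignment was tested on simulated data (200 of 200 planted summits correct). Alternatives covered distance, overlap, promoter definition, list strength and each replicate alone. Python 3.11.15, pandas 2.3.3, NumPy 2.4.6 and matplotlib 3.10.9 were used.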

Additional observations from a re-analysis of the deposited data

How the results depend on the processing

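No paired comparison of conditions was possible because there is 1 group. The number of SWI/SNF genes with a region was 3 or 4 under every alternative run. With the reproducible list these were 500 and 2000 bp upstream, overlap of 1 bp, nearest start and the stronger 50%. Other runs took the 1869 strongest regions of each replicate alone. A last one, chosen after seeing the data, took the 2878 strongest pooled regions, as many as the ce10 list holds, down to a signal of 69.5. The regions of these other runs need not be in the reproducible list. Over all settings 4.16% to 11.6% of all protein-coding genes had a region, so nothing is read from the counts. With each replicate alone there were 3 to 4 genes and 5 to 8 regions among its 1869 strongest, and 37 to 45 regions of any strength. Leaving out let-526, a setting chosen after seeing the data, 3 of the 8 reproducible regions were left. The count of genes with a reproducible summit in a promoter window was 4 in the main setting, where the share of all protein-coding genes was 6.38%. That share was not counted under the alternatives. It was 2 with the stronger 50%, 1 with a window from 500 bp upstream to 100 bp downstream, 2 with the outermost start only, and 2 to 4 with each replicate alone. The median best rank over the genes with a region was 3286 in the pooled list and 3354 to 4312 in the replicates. The median GC content of 50.2% was 53.0% with 50 bp to either side, where that of all reproducible regions was 48.5%. With 200 bp to either side the medians were 50% and 40.15%. At the replicates' own summits the median of the 8 regions was 49.8% to 50.2%. These settings were chosen after seeing the data. Of the other remodeller genes 7 had a region in the main setting and 5 to 9 under these alternatives, beside the same shares of all genes. The 9 came from the 2878 strongest pooled regions, which reach below the limit of the reproducible list. The 11 other values that moved are ranks of the strongest region of single genes. They moved by more than the SD between replicates, except at swsn-2.2 (9402 pooled, 7462 in replicate 2). That gene had no region in replicate 1 and so no SD, and any change counted as a move. Depth is unknown, so the absence of a region, as at snfc-5, says only that none was listed.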
